A study of Mus musculus with 15 samples.

Results

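The genes described here are the ligands and receptors of the 4 classical axon guidance systems. They were taken by a rule on gene symbols, which took in the Eph receptors and ephrins, the semaphorins with their plexin and neuropilin receptors, the slits with the Robo receptors, and the netrins with the Unc5 receptors. The rule found 68 genes of the 56092 named genes in the table, made up of 8 ephrins, 14 Eph receptors, 7 secreted and 13 membrane-bound semaphorins, 9 plexins, 2 neuropilins, 3 slits, 4 Robo receptors, 4 netrins and 4 Unc5 receptors. Of these, 54 reached at least 5 CPM (counts scaled to the library total) in at least 2 libraries and were tested, and 14 did not.

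Guidance ligands are read by receptors on neighbouring or migrating cells, which turn the contact into attraction, repulsion or a boundary. Ephrins are tethered to the membrane and act on Eph receptors of touching cells, whereas slits, netrins and class 3 semaphorins are secreted. Outside the nervous system the same proteins take part in boundary formation between somites, in mesenchymal cell movement and in vessel patterning, so trunk progenitors and their neural and mesodermal products are a setting in which many of them are known to act.

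The 15 bulk RNA libraries came from STR-KI mouse embryonic stem cells, 1 line that carries the alleles Sox2::mCherry/WT and Tbxt::GFP/WT in every group. Neuromesodermal progenitors (NMPs), the bipotent cells of the growing tail that form spinal cord and trunk mesoderm, were made with 10 ng/mL FGF2 for 48 h and then FGF2 with 5 µM CHIR99021, a GSK3 inhibitor that activates Wnt signalling, for a further 24 h. Cells positive for both reporters gave the NMP group of 3 libraries. NMPs kept in FGF/CHIR for 48 h were sorted into Sox2::mCherry+ cells (called Sox2 48 h, 2 libraries) and Tbxt::GFP+ cells (Tbxt 48 h, 2 libraries). Sorted Sox2::mCherry+ cells grown for 7 d in FGF alone gave Sox2::mCherry+ cells (FGF Sox2+, 2 libraries) and cells negative for both reporters (FGF DN, 1 library). The same culture for 7 d in FGF/CHIR gave FGF/CHIR Sox2+ and FGF/CHIR DN, with 1 library each. A 7 d culture of Tbxt::GFP+ cells, with CHIR beside FGF throughout, gave 3 libraries of double-negative cells (Tbxt 7 d). The labels do not say when the cells that founded the 7 d cultures were sorted, nor whether libraries of a group came from separate cultures, so p-values measure only the spread between these libraries. In sorted bulk samples, fewer cells of a type and less RNA per cell cannot be told apart.

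Depth, inferred from the CPM step of 1 read, was 3.43 to 9.88 M reads in 14 libraries and 0.799 M in FGF Sox2+ library 2, where 3 reads equal 3.76 CPM against 0.304 to 0.874 CPM elsewhere. Sox2 RNA was at 164 to 241 CPM in NMP, 217 to 221 in Sox2 48 h, 34.2 to 38.5 in Tbxt 48 h and 0 to 1.46 in Tbxt 7 d, and Tbxt RNA was at 216 to 222 CPM in Tbxt 48 h and 29.3 to 32.1 in Sox2 48 h. The summed level of 8 presomitic mesoderm markers was 981 to 1158 CPM in Tbxt 48 h and at most 182 CPM elsewhere, that of 10 neural progenitor markers was 898 to 1311 CPM in FGF Sox2+ and at most 166 elsewhere, and that of 12 mesenchyme markers was 6838 to 8336 CPM in Tbxt 7 d. Tbxt 7 d library 1 stood apart from its group, with 19 and 21 of the 54 tested guidance genes more than 1 log2 unit away from libraries 2 and 3, which differed by that much in 1. The FGF Sox2+ libraries differed by more than 1 log2 unit in 11 of the 54, the Sox2 48 h libraries in 2, and the NMP and Tbxt 48 h libraries in none.

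Of the 68 genes, 59 have a promoter window in the RefSeq table for GRCm38.p6; Plxna1, Plxna4, Efnb3, Sema3b, Sema3f, Sema6a, Unc5d, Ntn1 and Slit1 do not. The 250 bases before the transcription start are shown for 4 genes whose levels moved most differently between the Sox2-derived and Tbxt-derived cells. They cover chr1:62703067-62703316 for Nrp2, chr5:13396534-13396783 for Sema3a, chr15:32244563-32244812 for Sema5a and chr1:194619579-194619828 for Plxna2, all on the plus strand and in the coordinates of that build, which is not the build of the alignment. Capitals mark matches, on either strand, to the core letters of 3 factors of this system: CTTTGAT for the TCF/LEF factors of Wnt signalling, GGTGTGA for T-box factors such as Brachyury, and ACAATGG for SOX factors.
Nrp2: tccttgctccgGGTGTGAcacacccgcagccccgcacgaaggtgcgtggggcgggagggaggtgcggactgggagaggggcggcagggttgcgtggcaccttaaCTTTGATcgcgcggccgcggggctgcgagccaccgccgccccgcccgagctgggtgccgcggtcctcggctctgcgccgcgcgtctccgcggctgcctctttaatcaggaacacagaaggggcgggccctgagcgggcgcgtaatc
Sema3a: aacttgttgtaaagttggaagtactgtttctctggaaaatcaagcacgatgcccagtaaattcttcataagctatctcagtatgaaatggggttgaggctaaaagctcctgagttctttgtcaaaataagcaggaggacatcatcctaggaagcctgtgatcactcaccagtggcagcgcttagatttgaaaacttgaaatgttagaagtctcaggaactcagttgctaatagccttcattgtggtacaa
Sema5a: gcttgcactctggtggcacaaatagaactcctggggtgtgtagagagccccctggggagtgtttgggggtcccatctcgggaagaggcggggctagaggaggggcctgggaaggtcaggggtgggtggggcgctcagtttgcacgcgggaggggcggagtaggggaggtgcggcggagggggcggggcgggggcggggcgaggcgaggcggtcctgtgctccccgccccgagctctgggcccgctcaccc
Plxna2: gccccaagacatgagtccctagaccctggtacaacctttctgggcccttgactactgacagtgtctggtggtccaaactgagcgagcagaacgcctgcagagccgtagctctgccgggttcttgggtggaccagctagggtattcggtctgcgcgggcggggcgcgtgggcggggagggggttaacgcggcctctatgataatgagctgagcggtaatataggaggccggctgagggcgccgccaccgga
The Nrp2 window holds the T-box letters from 239 bases and the TCF/LEF letters from 146 bases before the start, and the 2 matches do not overlap. None of the 3 motifs occurs in the windows of Sema3a, Sema5a and Plxna2. Of 32851 mouse windows of this length, 3.2% hold CTTTGAT, 3.3% GGTGTGA and 3.0% ACAATGG. Among the 59 guidance genes, CTTTGAT was found for Nrp2 alone, GGTGTGA for Efna1, Nrp2 and Sema6c, and ACAATGG for Plxnc1 and Sema4a.

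The tested genes peaked in different groups. By group mean, 30 of the 54 (55.6%) were highest in Tbxt 7 d, as were 27% of all tested genes. Tbxt 48 h and FGF Sox2+ had 6 each (11.1%), beside 10.8 and 14.4% of all tested genes. NMP and FGF DN had 4 each (7.41%), beside 9.82 and 17%. Sox2 48 h and FGF/CHIR Sox2+ had 2 each (3.7%), beside 7.99 and 9.16%, and FGF/CHIR DN had 0, beside 3.83%. Among the 14 untested genes, Sema3d reached 15.1 CPM in Tbxt 7 d library 1 against 4.55 and 2.90 CPM in libraries 2 and 3, and Robo3, a Robo family member of commissural axons, reached 6.26 CPM in FGF Sox2+ library 2 and 2.97 CPM in library 1. Sema6b reached 5.01 CPM and Sema7a 3.76 CPM in FGF Sox2+ library 2, Unc5a reached 3.76 CPM there, and Sema4a reached 2.48 CPM in FGF DN. The highest values of Epha8, Sema3b, Robo4, Epha10, Plxnb3, Epha6, Sema3g and Ntn5 lay between 0.130 and 2.50 CPM.

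**Figure D1:**
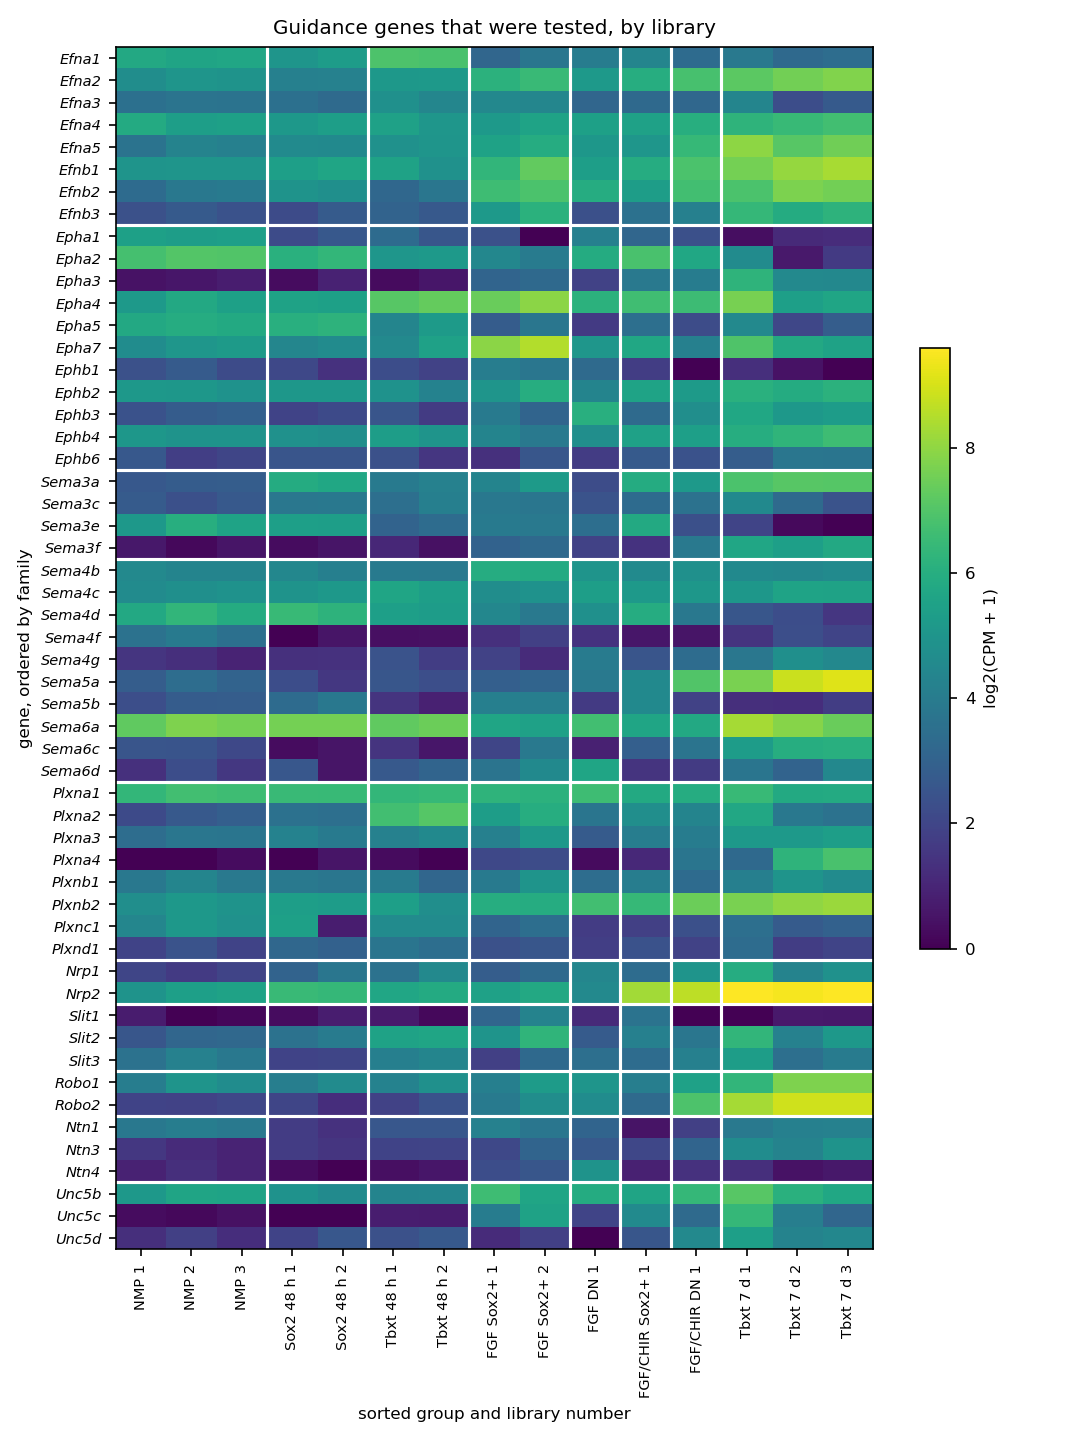
Levels of the 54 tested guidance genes as log2(CPM + 1), with genes down the side in family order and the 15 libraries along the bottom in their sorted groups. The right-hand columns, Tbxt 7 d, hold the brightest cells of Nrp2, Sema5a and Robo2, and library 1 of that group differs visibly from libraries 2 and 3.

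After 48 h in FGF/CHIR the Sox2+ cells held more Sema3a, Nrp2, Nrp1 and Efnb2 RNA than NMPs, and less Sema4f, Ntn1, Epha1, Slit3, Sema6c and Efna2. These 10 of 54 tested genes (18.5%) passed an adjusted p of 0.05 in limma, 4 higher and 6 lower, where 7.92% of all 12943 tested genes passed, 2.65% higher and 5.27% lower. Fold changes here and below are differences of log2(CPM + 1), which understate the change of low genes. The median over the 54 genes was −0.03 and that over all tested genes −0.01.

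Sema3a, a secreted semaphorin that repels axons and neural crest through neuropilin and plexin receptors, read 5.31, 5.95 and 6.15 CPM in NMP and 58.7 and 52.1 CPM in Sox2 48 h. The groups did not overlap, and the log2 fold change was 3.05 ± 0.23 (SE; adjusted p = 7.97e-06). Nrp2, a neuropilin that serves as co-receptor of class 3 semaphorins, rose from 29.6, 41.5 and 45.7 CPM to 90.6 and 82.9 CPM, again without overlap, by 1.16 ± 0.18 (adjusted p = 0.00142). Ntn1, a secreted netrin that attracts or repels axons according to the receptor, fell from 13.5, 15.6 and 13.9 CPM to 2.27 and 1.60 CPM, by 2.39 ± 0.24 on the log2 scale (adjusted p = 5.8e-05).

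Sema4f, a membrane-bound semaphorin, was at 11.3, 13.99 and 10.8 CPM in NMP and at 0 and 0.457 CPM in Sox2 48 h, where both values are under 3 reads (adjusted p = 6.97e-05). It reached 5 CPM in the 3 NMP libraries alone, so it entered the tests only through the group where it is high. Sema3a, Nrp2, Ntn1 and Sema4f were the 4 genes that stayed past the threshold whichever of the 5 libraries was left out. The Eph receptor Epha1 fell from 43.2, 40.0 and 41.6 CPM to 3.53 and 5.26 CPM (log2 fold change −2.999 ± 0.55), with an adjusted p of 0.00567 that became 0.0617 without Sox2 48 h library 1. The other co-receptor Nrp1 (log2 fold change 1.55 ± 0.42) and the secreted ligand Slit3 (−1.94 ± 0.50) lost the threshold with any 1 of the 5 libraries left out, at adjusted p of 0.077 to 0.363 and 0.0659 to 0.186.

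Efnb2, an ephrin that signals in both directions at tissue borders, was 1.14 ± 0.26 higher (adjusted p = 0.0177), with values of 0.0577, 0.131 and 0.107 without NMP library 1, Sox2 48 h library 1 and Sox2 48 h library 2. Efna2 was 0.67 ± 0.18 lower in Sox2 48 h and passed with 1 of the 5 libraries left out, NMP 1. Sema6c was at 3.25 to 4.80 CPM in NMP and 0.252 to 0.457 CPM in Sox2 48 h, all of the latter under 3 reads, and passed with 1 library left out, NMP 3. The count of genes called fell to 6, 6 and 7 without NMP 1, 2 and 3, where 5.77, 4.73 and 4.27% of all tested genes passed. Without either Sox2 48 h library, which leaves that group 1 library, fewer guidance genes and fewer of all tested genes passed. Under quantile normalization 5 genes were higher and 4 lower. The summed pluripotency markers were at 262 to 384 CPM in NMP and 28.2 to 31.3 CPM in Sox2 48 h, and epithelial markers at 191 to 230 and 39.7 to 56.0 CPM; their part in these differences was not tested.

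In Tbxt+ cells at 48 h the largest rise over NMPs was that of Plxna2, and 14 of the 54 genes (25.9%) passed, 9 higher and 5 lower, where 18.4% of all tested genes passed, 7.82% higher and 10.5% lower. The median change was 0.09 over the 54 and −0.02 over all genes. The higher genes were 2 ephrins of the A class, Sema3a and Sema4c, 2 plexins, Nrp1, Slit2 and Epha4. The lower genes were Sema4f, Epha1, Sema3e, Sema5b and Ntn1.

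Plxna2, a plexin that carries the signal of class 3 and class 6 semaphorins, read 3.50, 5.47 and 6.50 CPM in NMP and 104 and 134 CPM in Tbxt 48 h. The groups were far apart, and the log2 fold change was 4.30 ± 0.53 (adjusted p = 0.000368). Efna1, an ephrin ligand of EphA receptors, rose from 54.6, 48.1 and 49.9 CPM to 119 and 113 CPM (1.17 ± 0.22, adjusted p = 0.0028). Sema3a reached 14.4 and 17.6 CPM, above all 3 NMP values and below both Sox2 48 h values (1.31 ± 0.23, adjusted p = 0.00178).

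Sema3e, a secreted semaphorin that acts on Plxnd1 without a neuropilin, fell from 33.6, 63.4 and 46.8 CPM to 7.24 and 9.62 CPM (log2 fold change −2.34 ± 0.47, adjusted p = 0.00594). Its receptor Plxnd1 went the other way, from 2.85, 4.50 and 2.79 CPM to 12.4 and 9.96 CPM (1.49 ± 0.42, adjusted p = 0.0266), a call that was lost, at adjusted p of 0.0804 to 0.128, without NMP 1, NMP 3, Tbxt 48 h 1 or Tbxt 48 h 2. Sema4f was at 0.304 and 0.338 CPM in Tbxt 48 h, and Ntn1 at 5.16 and 5.06 CPM (log2 fold change −1.33 ± 0.24, adjusted p = 0.00205). Plxna2, Efna1, Sema3a, Sema3e, Sema4f and Ntn1 were the 6 of the 14 that passed whichever of the 5 libraries was left out.

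Slit2, a secreted ligand of Robo receptors, read 4.93, 7.88 and 8.36 CPM in NMP and 44.8 and 49.6 CPM in Tbxt 48 h (2.61 ± 0.53, adjusted p = 0.00719). Slit2, Epha1, Nrp1 and Sema5b lost the threshold without Tbxt 48 h library 2, which leaves that group 1 library. The log2 fold changes there were 2.54, −2.06, 1.775 and −1.19. Fewer guidance genes and fewer of all tested genes passed in that fit. Epha4, an Eph receptor of somite borders, was at 34.2 to 53.9 CPM in NMP and 138 and 160.2 CPM in Tbxt 48 h (1.77 ± 0.54, adjusted p = 0.0473), with adjusted p of 0.0723 to 0.273 when any 1 library was left out. Efna5 (0.90 ± 0.25) lost the threshold without NMP 1, Tbxt 48 h 1 or Tbxt 48 h 2 at adjusted p of 0.082, 0.0684 and 0.193, and Sema4c (0.76 ± 0.18) without either Tbxt 48 h library at 0.0911 and 0.0503. Presomitic mesoderm markers rose from 157 to 182 CPM in NMP to 981 to 1158 CPM in Tbxt 48 h. Pluripotency markers went from 262 to 384 CPM down to 8.52 to 12.7 CPM and epithelial markers from 191 to 230 CPM down to 8.02 to 8.66 CPM, and the part of the 3 lists was not tested.

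**Figure D2:**
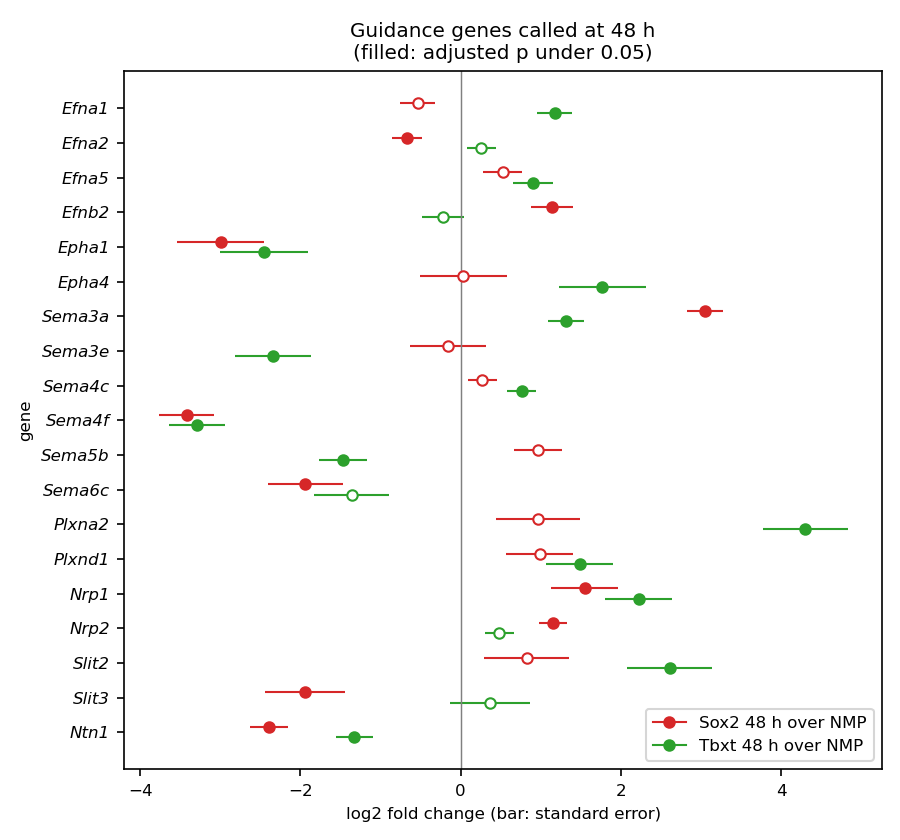
Log2 fold change over NMP, with its standard error as a bar, for the 19 guidance genes that passed in at least 1 of the 2 comparisons, Sox2 48 h in red and Tbxt 48 h in green. Filled points passed an adjusted p of 0.05 and open points did not. Both comparisons use the same 3 NMP libraries.

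The 2 populations of the 48 h culture shared medium and time and differed in the reporter sorted. Between them 9 of 54 genes (16.7%) passed, 5 higher and 4 lower in the Tbxt+ cells, where 3.9% of all tested genes passed, 2.05% higher and 1.85% lower. The medians were 0.32 over the 54 and 0.02 over all genes. Sema5b, a membrane-bound semaphorin with repellent activity, was at 1.72 and 0.844 CPM in Tbxt 48 h and at 9.34 and 13.3 CPM in Sox2 48 h (log2 fold change −2.44 ± 0.33, adjusted p = 0.000986). Sema3a was 1.74 ± 0.25 log2 units lower in the Tbxt+ cells (adjusted p = 0.00171), and Efna1 was 1.71 ± 0.24 higher (adjusted p = 0.00141). These 3 genes passed whichever of the 4 libraries was left out.

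Plxna2, with both Tbxt+ libraries at 104 CPM or more and both Sox2+ libraries at 10.98 CPM or less, was 3.34 ± 0.58 higher (adjusted p = 0.00972), and its adjusted p was 0.0807 without Sox2 48 h library 2 and 0.127 without Tbxt 48 h library 2. Slit3 (2.31 ± 0.55), Sema3e (−2.18 ± 0.52), Ntn1 (1.07 ± 0.26) and Efna2 (0.93 ± 0.20) lost the threshold with any 1 of the 4 libraries left out, with adjusted p of 0.0526 to 0.31 across these genes. Efnb2 (−1.36 ± 0.29) passed without Tbxt 48 h library 2 and not without the others, at 0.0895 to 0.115. Leaving out any 1 of the 4 libraries leaves 1 library in a group, and fewer of all tested genes passed in each of these fits as well. Plxnc1, the plexin that binds Sema7a, could not be read as a group value in Sox2 48 h, since it was at 42.7 CPM in library 1 and 0.686 CPM in library 2, with 20.2 to 33.8 CPM in NMP and 24.1 and 23.6 CPM in Tbxt 48 h.

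After 7 d in FGF alone, cells that kept Sox2::mCherry held more RNA of most ephrins and of several receptors than Sox2+ cells at 48 h. Here 30 of 54 genes (55.6%) passed, 23 higher and 7 lower, where 24.7% of all tested genes passed, 18.2% higher and 6.51% lower; time and medium changed together. By family, 5 ephrins were higher and 1 lower of 8 tested, 5 Eph receptors higher and 2 lower of 11, 4 membrane-bound semaphorins higher and 2 lower of 10, and 2 of 3 slits, 2 of 3 netrins, 2 of 3 Unc5 receptors, 1 of 2 Robo receptors and 1 of 8 plexins higher. The median change was 0.80 over the 54 and 0.17 over all genes; scaling by median of ratios brought the latter to 0.03 and quantile normalization to −0.03, with 30 and 29 of the 54 still called.

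Epha7, an Eph receptor of neural progenitors and cortical patterning, read 20.2 and 23.5 CPM in Sox2 48 h and 245 and 363 CPM in FGF Sox2+. All other groups were at 16.9 to 122 CPM, and the log2 fold change was 3.71 ± 0.43 (adjusted p = 0.000185). Efnb3, a midline ephrin that stops axons from crossing, rose from 3.53 and 5.71 CPM to 34.4 and 68.2 CPM (3.17 ± 0.32, adjusted p = 3.16e-05). Slit1, a secreted repellent, was at 0.252 and 0.686 CPM at 48 h and at 7.86 and 18.8 CPM at 7 d (adjusted p = 0.000456), and apart from 11.5 CPM in FGF/CHIR Sox2+ no other group exceeded 1.24 CPM.

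Robo2, a slit receptor, rose by 2.68 ± 0.32 (adjusted p = 0.000122), Ntn1 by 2.45 ± 0.26 (4.16e-05), Ephb1 by 2.18 ± 0.43 (0.00331) and Epha3 by 2.57 ± 0.49 (0.00267). The repulsive netrin receptor Unc5c was listed at 0 in both Sox2 48 h libraries and at 15.5 and 45.1 CPM in FGF Sox2+ (adjusted p = 0.00173). Sema3f, a class 3 semaphorin that acts mainly through Nrp2, was at 0.252 and 0.457 CPM and then at 7.01 and 8.76 CPM, and Sema6c at the same 48 h values and then at 2.97 and 13.8 CPM, so that the 48 h side of both lay under 3 reads. The adjusted p of Sema6c was 0.0041, and 0.0314 without FGF Sox2+ library 2. Epha4 (2.18 ± 0.59) lost the threshold without Sox2 48 h 1, Sox2 48 h 2 or FGF Sox2+ 2, at adjusted p of 0.0776, 0.106 and 0.116. Sema6d (2.55 ± 0.63) lost it without Sox2 48 h library 2 at 0.117 and without FGF Sox2+ library 2 at 0.0995.

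Among the genes that fell, Sema6a, a membrane-bound semaphorin that binds A-class plexins, went from 190.4 and 192 CPM to 48.5 and 44.4 CPM (log2 fold change −2.02 ± 0.24, adjusted p = 0.000108). Sema4d, which signals through Plxnb1, went from 87.6 and 72.7 CPM to 21.0 and 13.8 CPM (−2.16 ± 0.31, adjusted p = 0.000422). Efna1 fell by 1.69 ± 0.24 (adjusted p = 0.000352). Epha5 went from 65.8 and 73.3 CPM to 5.95 and 12.5 CPM (−2.86 ± 0.64, adjusted p = 0.00883), with adjusted p of 0.0538 without Sox2 48 h library 2 and 0.0536 without FGF Sox2+ library 1. Sema3a (−1.05 ± 0.25) and Nrp2 (−0.81 ± 0.19) lost the threshold without Sox2 48 h library 1, at 0.0634 and 0.0633, and without FGF Sox2+ library 1, at 0.064 and 0.0701; Ephb4 (−0.70 ± 0.23) lost it without Sox2 48 h 1, Sox2 48 h 2 or FGF Sox2+ 2, at 0.162, 0.119 and 0.25.

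Of the 30 calls, 16 held whichever of the 4 libraries was left out. The 11 further called genes outside the size rule were Efna2, Efna5, Efnb1, Efnb2, Plxna2, Slit2, Sema4b, Ephb3, Unc5b, Ntn4 and Sema4f, all higher in FGF Sox2+, with Ntn4 and Sema4f under 3 reads at 48 h. Epithelial markers summed to 39.7 to 56.0 CPM in Sox2 48 h and 335 to 618 CPM in FGF Sox2+, and pluripotency markers to 28.2 to 31.3 and 72.9 to 243 CPM. The 2 FGF Sox2+ libraries differed in their markers as well, with summed neuron markers of 236 CPM in library 1 and 800.1 CPM in library 2 and mesenchyme markers of 96.4 and 458 CPM. Library 2 was the higher of the pair for Slit1, Slit2, Efnb1, Efnb3, Unc5c and Sema6c, and the part of these markers in the results was not tested. Without library 2, Slit2 had an adjusted p of 0.266 and Efnb1 of 0.122. On data simulated for this comparison from NMP levels, the fit made 36 false calls among 11374 genes.

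Double-negative cells from the Tbxt+ culture at 7 d held several guidance genes at levels far above every 48 h library. In this comparison 41 of 54 genes (75.9%) passed, 31 higher and 10 lower, where 54.2% of all tested genes passed, 30.7% higher and 23.5% lower, and the medians were 1.10 over the 54 and 0.09 over all genes (−0.10 after quantile normalization). All 8 ephrins passed, 6 higher and 2 lower, as did 10 of 11 tested Eph receptors (6 higher, 4 lower), both tested Robo receptors and all 3 tested Unc5 receptors (higher). Both groups had been in FGF/CHIR, and they differed in time and in the reporter gate. Of the 41 calls, 30 held whichever of the 5 libraries was left out.

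Robo2 was at 2.73 and 4.30 CPM in Tbxt 48 h and at 317, 475 and 485 CPM in Tbxt 7 d, a log2 fold change of 6.56 ± 0.30 (adjusted p = 1.02e-08). Its relative Robo1, also a slit receptor, read 18.0 and 27.5 CPM and then 78.3, 216 and 212 CPM, with library 1 the lowest of the 7 d group in both genes (2.73 ± 0.48, adjusted p = 0.000659). Sema5a, a membrane-bound semaphorin with thrombospondin repeats, went from 5.01 and 3.97 CPM to 205, 454 and 560.3 CPM (6.10 ± 0.36, adjusted p = 9.84e-08). The 7 d values of these 3 genes lay above all values of the 48 h group.

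Nrp2 was at 50.6 and 57.5 CPM and then at 776, 703 and 772 CPM (3.77 ± 0.18, adjusted p = 1.25e-08), and its 3 values at 7 d lay close together. Of the 4 tested secreted semaphorins, which bind neuropilins or plexins, 2 rose: Sema3a from 14.4 and 17.6 CPM to 118, 136 and 133 CPM (2.94 ± 0.23, adjusted p = 5.17e-07), and Sema3f from 1.11 and 0.338 CPM to 50.1, 41.6 and 53.8 CPM (4.87 ± 0.29, adjusted p = 6.87e-08). Sema3e fell, and Sema3c, at 10.2 and 16.5 CPM and then at 22.3, 8.91 and 4.48 CPM, did not pass. Plxna4, a plexin of the same receptor complexes, was at 0.202 and 0 CPM, under 3 reads, and then at 8.74, 74.9 and 113 CPM (adjusted p = 0.000164, and 5.74e-09 without library 1), with library 1 apart from the others.

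Efnb2 rose from 8.30 and 12.7 CPM to 116, 205 and 189 CPM (3.88 ± 0.26, adjusted p = 1.67e-07) and Efnb3 from 7.29 and 5.40 CPM to 83.0, 58.4 and 72.2 CPM (3.29 ± 0.29, adjusted p = 1.57e-06). The B-class receptor Ephb3 rose by 3.28 ± 0.32 (adjusted p = 3.14e-06), and Sema6c, from 1.72 and 0.506 CPM, by 4.77 ± 0.47 (4.08e-06). Epha3 went from 0.202 and 0.506 CPM to 74.0, 22.2 and 21.6 CPM (4.66 ± 0.45, adjusted p = 3.17e-06) and Unc5c from 0.709 and 0.675 CPM to 82.1, 16.4 and 7.90 CPM (3.79 ± 0.74, adjusted p = 0.00119), and in both library 1 was the highest. Without it the changes were 4.09 (adjusted p = 1.57e-07) for Epha3 and 2.88 (8.39e-05) for Unc5c.

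Efna1 fell from 119 and 113 CPM to 13.7, 8.71 and 9.74 CPM (log2 fold change −3.34 ± 0.22, adjusted p = 1.34e-07) and Sema4d from 42.2 and 38.5 CPM to 4.95, 3.76 and 1.84 CPM (−3.26 ± 0.29, adjusted p = 1.5e-06). Plxna2 fell from 104 and 134 CPM to 53.6, 13.4 and 11.2 CPM (−2.49 ± 0.53, adjusted p = 0.00231), or by 3.17 without library 1, and Sema3e by 2.48 ± 0.47 on the log2 scale (adjusted p = 0.000951). Both groups were free of overlap for these 4 genes.

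Epha2 was at 31.7 and 35.9 CPM at 48 h and at 23.9, 0.594 and 2.11 CPM at 7 d, so that library 1 was close to the 48 h level. Its adjusted p of 0.0244 became 0.0847, 0.109, 0.0506 and 0.071 without Tbxt 48 h 1, Tbxt 48 h 2, Tbxt 7 d 2 and Tbxt 7 d 3. Plxnd1 (−1.22 ± 0.42) lost the threshold without the same 4 libraries at 0.137, 0.0705, 0.0924 and 0.0834, Efna3 (−1.49 ± 0.46) without Tbxt 48 h 1 at 0.11 and Tbxt 7 d 3 at 0.0546, and Epha1 (−2.05 ± 0.55) without Tbxt 48 h 1 at 0.077. Mesenchyme markers rose from 175 to 187 CPM in Tbxt 48 h to 6838 to 8336 CPM in Tbxt 7 d, while the genes of this paragraph fell. Neural crest markers summed to 153 CPM in Tbxt 7 d library 1 and to 38.0 and 31.1 CPM in libraries 2 and 3, and the part of either list in the results was not tested.

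**Figure D3:**
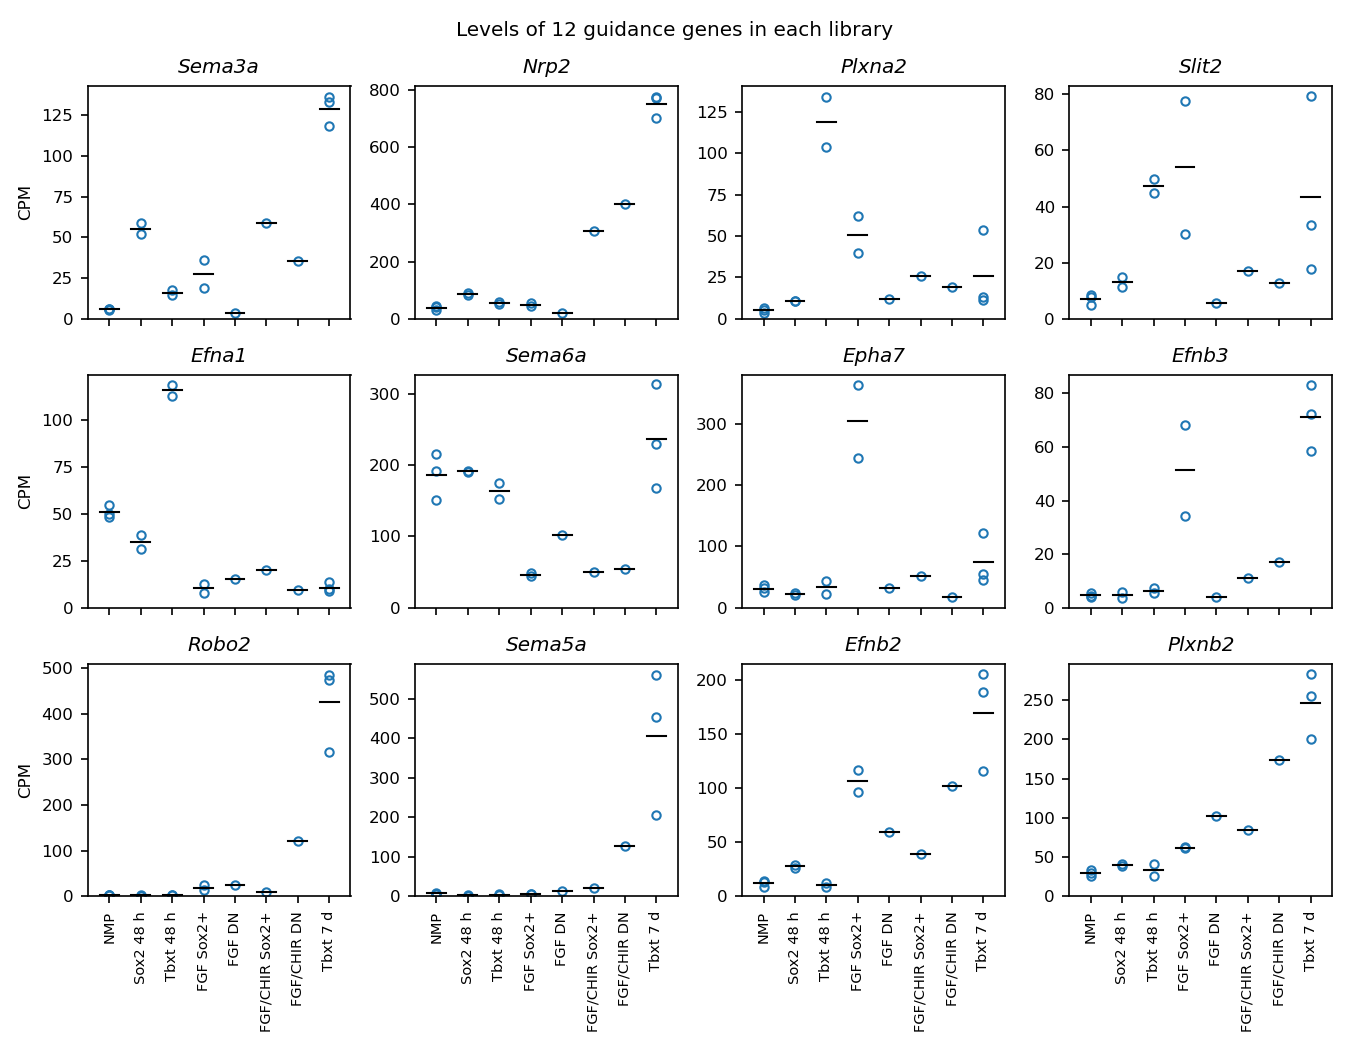
CPM of 12 guidance genes in each library (circles) with the group mean (line), in the 8 sorted groups. Sema3a, Nrp2, Robo2, Sema5a, Efnb2 and Plxnb2 have their highest library in Tbxt 7 d, Plxna2 and Efna1 in Tbxt 48 h, and Epha7 in FGF Sox2+.

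The change from 48 h to 7 d differed between the 2 sources for 32 of 54 genes (59.3%), where 33.6% of all tested genes passed the test of that difference, 14.2% above 0 and 19.4% below. The Sox2-derived change is that of FGF Sox2+ over Sox2 48 h and the Tbxt-derived change that of Tbxt 7 d over Tbxt 48 h, so source, gate and 7 d medium differ together. The difference was above 0 for 22 genes, which gained more or lost less in the Tbxt-derived cells, and below 0 for 10. The medians were 0.26 over the 54 and −0.07 over all genes, and 17 of the 32 calls held whichever of the 9 libraries was left out. The count was 19 without Tbxt 48 h library 2.

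Nrp2 rose by 3.77 in the Tbxt-derived cells and fell by 0.81 in FGF Sox2+, a difference of 4.58 ± 0.26 (adjusted p = 3.13e-07). Sema3a rose by 2.94 and fell by 1.05, a difference of 3.99 ± 0.34 (adjusted p = 7.05e-06). Plxna2 went the opposite way, with changes of −2.49 and 2.11 (difference −4.60 ± 0.78, adjusted p = 0.00152). With 1 library left out the Plxna2 rise in FGF Sox2+ was 1.80 to 2.42 and did not pass in every fit. In FGF/CHIR Sox2+, 1 Sox2-derived library, the log2 difference from FGF Sox2+ was 2.615 for Nrp2, 1.06 for Sema3a and −0.95 for Plxna2. That of FGF/CHIR DN from Tbxt 7 d was −0.90, −1.83 and −0.43, and the part of the medium was not tested. Robo2 rose in both sources, by 3.88 ± 0.44 more in the Tbxt-derived cells (adjusted p = 5.09e-05). Sema5a changed by 6.10 and by 1.10, of which the latter did not pass, a difference of 5.00 ± 0.54 (adjusted p = 4.71e-05).

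Ephb1 had changes of −1.48 and 2.18 (difference −3.66 ± 0.58, adjusted p = 0.000618), and Unc5d, a repulsive netrin receptor, of 2.18 and −0.76 (2.94 ± 0.57, adjusted p = 0.00203). Sema6a changed by 0.49 and −2.02 (2.51 ± 0.32, adjusted p = 0.000141), and Slit1 by −0.03 and 3.19 (−3.21 ± 0.63, adjusted p = 0.00235), with both Tbxt groups of Slit1 at or under 0.607 CPM. Epha7 changed by 1.07 and 3.71 (−2.64 ± 0.59, adjusted p = 0.00613), and its Tbxt-derived change was 0.65 (adjusted p = 0.0745) without Tbxt 7 d library 1 and 0.59 (adjusted p = 0.328) without Tbxt 48 h library 1. The difference of Plxna4, 3.44 ± 1.16 (adjusted p = 0.0408), passed in 1 of the 9 fits that left out a library, the one without Tbxt 7 d library 1, and had adjusted p of 0.0621 to 0.122 in the others. Epha4 had changes of −1.004 and 2.18 (−3.19 ± 0.80), and its adjusted p of 0.0134 became 0.0559 without Tbxt 48 h library 2.

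**Figure D4:**
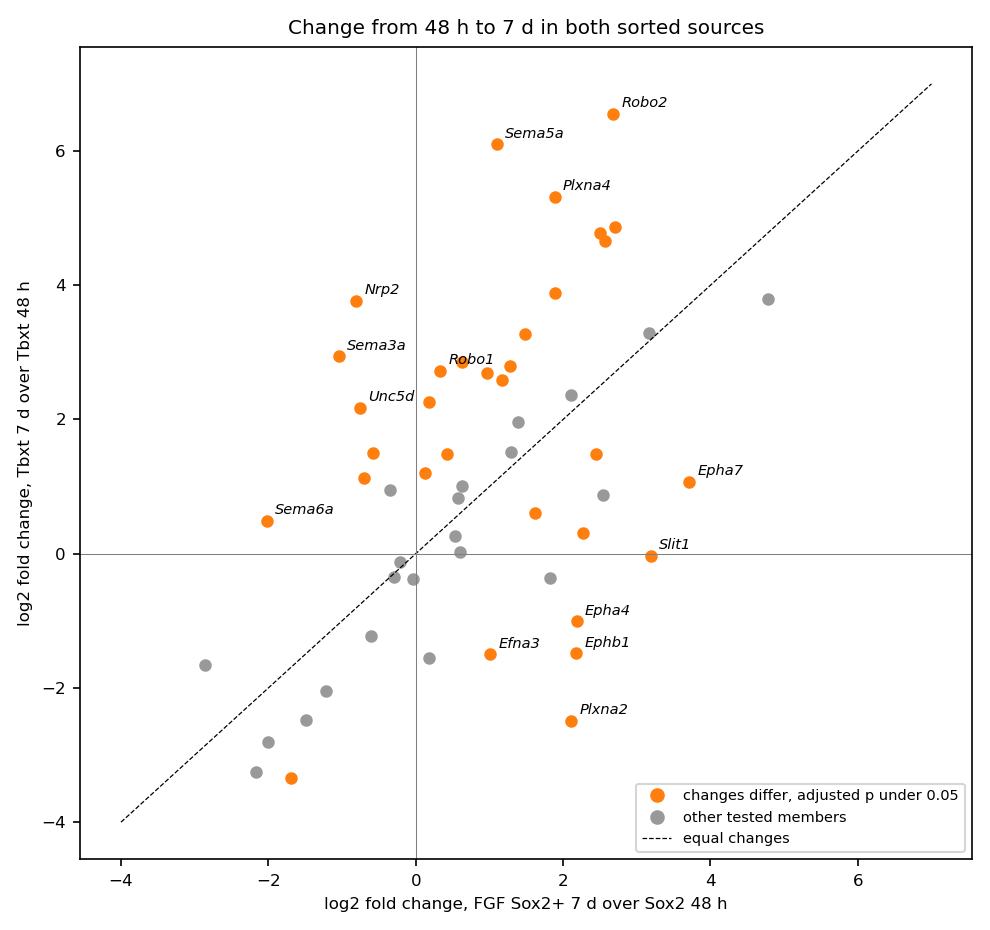
Log2 fold change from 48 h to 7 d of the 54 tested guidance genes in the Sox2-derived cells (horizontal) and the Tbxt-derived cells (vertical), with a dashed line at equal changes. The 32 orange genes passed the test of the difference between the changes; Nrp2, Sema3a and Unc5d lie in the upper left, and Plxna2, Ephb1 and Epha4 in the lower right.

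Set side by side at 7 d, Tbxt 7 d and FGF Sox2+ differed in 34 of 54 genes (63.0%), 24 higher and 10 lower in Tbxt 7 d, where 47.6% of all tested genes passed, 21.1% higher and 26.5% lower. The medians were 0.54 and −0.07. Both tested Robo receptors and both neuropilins were higher in Tbxt 7 d, whose libraries stood at 60.3, 18.8 and 28.2 CPM of Nrp1 against 6.16 and 8.76 CPM. The untested Robo3 had its highest group mean, 4.62 CPM, in FGF Sox2+. Sema5a was 5.54 ± 0.36 higher (adjusted p = 2.78e-07), Robo2 4.41 ± 0.30 (2.35e-07), Nrp2 3.91 ± 0.18 (1.33e-08) and Unc5d 3.22 ± 0.38 (2.34e-05). Ephb4, a receptor of Efnb2 known from vessels, was at 61.4, 76.6 and 96.4 CPM against 19.1 and 13.8 CPM (2.18 ± 0.21, adjusted p = 3.87e-06).

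Genes lower in Tbxt 7 d than in FGF Sox2+ were led by Ephb1, at 1.46, 0.396 and 0 CPM against 15.8 and 12.5 CPM (log2 fold change −3.32 ± 0.39, adjusted p = 2.34e-05). Slit1 followed at 0, 0.594 and 0.527 CPM against 7.86 and 18.8 CPM, Sema3e at 2.91, 0.198 and 0 CPM against 14.7 and 13.8 CPM (−3.18 ± 0.47, adjusted p = 0.000207), and Sema5b at 1.46, 1.39 and 2.37 CPM against 16.8 and 16.3 CPM (−2.70 ± 0.30, adjusted p = 1.36e-05). Epha7 was 2.14 ± 0.40 lower, Sema4d 2.06 ± 0.29 lower and Sema4b 1.39 ± 0.16 lower. Of the 34 calls, 27 held whichever of the 5 libraries was left out. On data simulated for this comparison from NMP levels, the fit made 91 false calls among 11385 genes. Efna3 (−1.32 ± 0.46, adjusted p = 0.0338) did not hold without FGF Sox2+ 1, FGF Sox2+ 2, Tbxt 7 d 2 or Tbxt 7 d 3, at 0.13, 0.108, 0.101 and 0.1. The comparison shares the FGF Sox2+ and Tbxt 7 d libraries with those above. All 12 mesenchyme markers were higher in Tbxt 7 d, and 7 of 8 epithelial, 6 of 8 pluripotency, 6 of 8 tested neural progenitor and 6 of 7 tested neuron markers were lower; their part in these differences was not tested.

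In the Sox2-derived cultures at 7 d, double-negative cells were compared with Sox2+ cells as the mean of the differences in FGF and in FGF/CHIR, over 2 and 3 libraries. This gave 14 calls of 54 (25.9%), 7 higher and 7 lower in the double-negative cells, where 14.1% of all tested genes passed, 7.12% higher and 6.99% lower, with medians of −0.20 and −0.10. Slit1 was at 1.24 and 0 CPM in FGF DN and FGF/CHIR DN against 7.86, 18.8 and 11.5 CPM in the Sox2+ libraries (log2 fold change −3.10 ± 0.44, adjusted p = 0.000515). It reached 5 CPM in those 3 Sox2+ libraries alone, so it was tested only through the side where it is high. Sema5b was at 2.06 and 2.74 CPM against 16.8, 16.3 and 22.5 CPM (−2.58 ± 0.31, adjusted p = 0.000136). Both genes were low in both media. With 1 of the 5 libraries left out the log2 fold change was −3.645 to −2.56 for Slit1 and −2.65 to −2.52 for Sema5b. FGF DN, FGF/CHIR Sox2+ and FGF/CHIR DN held 1 library each, so their spread was borrowed from the other groups. A refit without 1 of these dropped its whole medium and is not a replicate check. Ntn4 reached 5 CPM in 2 libraries alone, and was highest in FGF DN at 29.3 CPM. Without FGF DN it fell under the level filter and was not tested. The 3 refits in which it kept its call all held FGF DN, so they are no check on that library. Its log2 difference was 2.48 in FGF and 0.51 in FGF/CHIR.

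The log2 differences in FGF and in FGF/CHIR were 1.33 and 1.56 for Nrp1, 2.48 and 1.42 for Ephb3, 0.72 and 1.03 for Plxnb2, and −3.22 and −1.55 for Epha7, so that these genes moved the same way in both media. The main fit gave −2.37 ± 0.41 for Epha7, 1.98 ± 0.32 for Ephb3, 1.68 ± 0.37 for Sema4g and −0.96 ± 0.26 for Plxna3. Without FGF DN, which leaves FGF/CHIR alone with 1 library on each side, the values were −1.55, 1.42, 0.89 and −0.04. These calls did not hold there, and fewer of all tested genes passed as well. Sema3e (−1.98 ± 0.49) was at 56.3 CPM in FGF/CHIR Sox2+ and 4.11 CPM in FGF/CHIR DN but at 10.0 CPM in FGF DN and 14.7 and 13.8 CPM in FGF Sox2+, and had adjusted p of 0.682 without FGF/CHIR Sox2+ and 0.684 without FGF/CHIR DN. Plxnb2 (0.88 ± 0.21) lost the threshold without FGF DN, FGF/CHIR Sox2+ or FGF/CHIR DN at 0.115, 0.102 and 0.104, and Nrp1 (1.46 ± 0.43) with any 1 of the 5 libraries left out at 0.0663 to 0.281, while the change itself stayed at 0.72 to 1.03 for Plxnb2 and 1.35 to 1.57 for Nrp1.

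The 3 groups of 1 library have no replicate check of their own, and their values are descriptions. Nrp2 was at 308 CPM in FGF/CHIR Sox2+ and 403 CPM in FGF/CHIR DN, against 43.7 and 55.1 CPM in FGF Sox2+ and 21.7 CPM in FGF DN. Both FGF/CHIR libraries thus lay between the FGF libraries and the 703 to 776 CPM of Tbxt 7 d. Sema5a was at 22.3 CPM in FGF/CHIR Sox2+ and 127 CPM in FGF/CHIR DN, and Robo2 at 8.94 and 120.5 CPM, and for both genes FGF/CHIR DN came second only to Tbxt 7 d.

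FGF/CHIR DN also held 102 CPM of Efnb2, 117 CPM of Efnb1, 174 CPM of Plxnb2 and 21.8 CPM of Unc5d. Its mesenchyme markers summed to 2555 CPM, against 577 CPM in FGF/CHIR Sox2+ and 418 CPM in FGF DN. FGF DN was the highest library for Ephb3 at 65.2 CPM, for Sema6d, a membrane-bound semaphorin, at 49.3 CPM, and for Ntn4, a laminin-related netrin of basement membranes, at 29.3 CPM. Endoderm markers summed to 707 CPM in FGF DN and 89.4 CPM in FGF/CHIR DN and to at most 15.03 CPM in the other libraries, and epithelial markers to 1337 and 484 CPM, against 335 to 618 CPM in FGF Sox2+. Pluripotency markers summed to 505 and 416 CPM in the 2 double-negative libraries and to 262 to 384 CPM in NMP. Their part in the guidance gene values of the 2 double-negative libraries was not tested.

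Genes that work with these ligands and receptors were followed in 2 lists, of which 18 of 21 co-receptors and further ligands and 41 of 44 intracellular mediators were tested. At 48 h, 2 co-receptors were higher and 2 lower in Sox2 48 h than in NMP, and 3 higher and 3 lower in Tbxt 48 h, with 3 mediators higher and 3 lower, and 7 higher and 3 lower. These are 22.2 and 33.3% of the co-receptors and 14.6 and 24.4% of the mediators, where 7.92 and 18.4% of all tested genes passed. Flrt2, a ligand of the netrin receptor Unc5d, was at 1.30, 2.09 and 1.97 CPM in NMP, 7.82 and 8.23 CPM in Sox2 48 h and 16.6 and 22.1 CPM in Tbxt 48 h (1.71 ± 0.24, adjusted p = 0.000808, and 2.87 ± 0.24, adjusted p = 1.11e-05). Nfasc, a cell adhesion molecule of axons, fell in both (log2 fold changes −2.61 ± 0.45 and −2.79 ± 0.45). Mical1, an enzyme that carries plexin signals to actin, was 2.43 ± 0.26 higher in Tbxt 48 h than in Sox2 48 h (adjusted p = 0.000179), and Dpysl5, a relative of the semaphorin mediator CRMP2, 2.30 ± 0.34 higher (adjusted p = 0.00225).

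At 7 d in FGF, 11 co-receptors were higher and 1 lower in Sox2+ cells than at 48 h, and 11 mediators passed, all of them higher (66.7 and 26.8%, where 24.7% of all tested genes passed). Dcc, the netrin receptor that mediates attraction, was at 1.01 and 2.74 CPM at 48 h and 28.9 and 98.9 CPM at 7 d (4.32 ± 0.50, adjusted p = 8.89e-05). Srgap3, an intracellular partner of Robo receptors, rose by 4.59 ± 0.37 (adjusted p = 5.96e-06). In Tbxt 7 d over Tbxt 48 h, 11 co-receptors were higher and 2 lower, and 19 mediators higher and 4 lower (72.2 and 56.1%, where 54.2% of all passed). Cdon, a co-receptor for hedgehog that also binds netrin, rose from 7.19 and 8.78 CPM to 153, 148 and 203 CPM (4.22 ± 0.30, adjusted p = 2.79e-07), and its relative Boc by 3.23 ± 0.33 (adjusted p = 5.66e-06).

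Dpysl5 went from 25.9 and 25.1 CPM in Tbxt 48 h to 2.62, 0.990 and 1.58 CPM in Tbxt 7 d (log2 fold change −3.32 ± 0.31), and its changes in the 2 sources differed by −6.20 ± 0.47 (adjusted p = 3.17e-06). Dcc was at 5.82, 3.37 and 3.69 CPM in Tbxt 7 d, below both FGF Sox2+ libraries (−3.40 ± 0.46, adjusted p = 6.37e-05). In the double-negative cells of the Sox2-derived cultures, 2 co-receptors were higher and 6 lower, and 1 mediator higher and 5 lower (44.4 and 14.6%, where 14.1% of all passed). The mediators' shares at 7 d thus lay near those of all genes. In the list of co-receptors and further ligands, the 2 higher genes in these double-negative cells were Flrt3 (3.09 ± 0.22, adjusted p = 1.93e-06) and Flrt2 (3.05 ± 0.25, adjusted p = 5.11e-06). Flrt2 was at 44.4 and 75.4 CPM against 3.18, 5.01 and 9.05 CPM in the Sox2+ libraries.

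Of the 54 tested guidance genes, 51 (94.4%) passed in at least 1 of the 6 comparisons between 2 groups, as did 73.4% of all tested genes, and Sema3c, Plxna1 and Plxnc1 passed in none. Plxna1, a plexin that pairs with neuropilins, lay between 55.9 and 101 CPM in all 15 libraries. Sema3c lay between 4.10 and 22.3 CPM, with both its extremes of the 7 d Tbxt group, 22.3 and 4.48 CPM, inside that group. A gene that did not pass is not shown to be equal between groups.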

How the data were processed

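Bulk RNA libraries made with oligo-dT priming, molecular identifiers and tagmentation were deposited by the authors as 1 table of CPM values (counts scaled to the library total) per gene. STAR 2.7, SAMtools 1.21 and the GRCm39 build are named, per the submitters' processing notes; no source used here gives the annotation, the counting, or how identifiers and reads with several matches were handled. Genes without a name held 1.10 to 1.81% of each library and were left out. The CPM steps gave whole reads (within 0.01) for 71.7 to 78.7% of values, so no count test was run.

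Tests used limma 3.58.1 in R 4.3.3 with 1 mean per group for all 15 libraries, 7 residual degrees of freedom, a trended prior and Benjamini-Hochberg adjustment over 12943 genes on log2(CPM + 1). Genes needed 5 CPM in 2 libraries. In each comparison up to 12 guidance genes per direction were named by size, with an adjusted p under 0.05, a mean of 5 CPM in the higher group and libraries that did not overlap (a condition not used for the difference of changes), with up to 4 other pathway genes; genes named beyond this were chosen after their values were seen. The members and lists were chosen with earlier results of these data known. The fit was also run on simulated data. Every simulated group had the NMP means and 1 fixed spread beyond read sampling, and only genes above the level filter were changed. There the fit recovered, over the 7 comparisons simulated, 88 to 98% of 2-fold and 100% of 4-fold changes. It made 91 false calls for Tbxt 7 d against FGF Sox2+, 36 for FGF Sox2+ against Sox2 48 h and 1 to 4 for the others. The difference of changes was not simulated. In the real data the spread was unequal. The FGF Sox2+ libraries differed by over 1 log2 unit in 9.92% of genes, and pairs of NMP libraries in 0.147 to 2.29%. The simulated rates therefore do not give the power or error rate in the real data. Promoter windows and figures were made with Python 3.11.15, pandas 2.3.3 and matplotlib 3.10.9. The alternatives were pseudocounts of 0.25 and 4, other filters, median-of-ratios and quantile scaling, array weights, fitting the compared groups alone, a replicate block and leaving out each library.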

Additional observations from a re-analysis of the deposited data

Results flagged for a closer look

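For 32 guidance genes the change from 48 h to 7 d differed between Tbxt-derived and Sox2-derived cells by a test of the difference itself, in limma with adjustment over all tested genes. The values are differences of log2 changes, Tbxt-derived minus Sox2-derived, and 33.6% of all tested genes passed the same test. Among the 22 genes with a difference above 0, those above 3 log2 units were Sema5a (5.00), Nrp2 (4.58), Sema3a (3.99), Robo2 (3.88) and Plxna4 (3.44). The Plxna4 difference passed in 1 of the 9 fits that left out a library, and 17 of the 32 genes passed in all 9. Those between 2 and 3 units were Unc5d (2.94), Sema6a (2.51), Robo1 (2.40), Sema6c (2.27), Plxnb2 (2.23), Sema3f (2.16), Epha3 (2.09), Ephb6 (2.09) and Sema4g (2.08). The others above 0 were Efnb2 (1.99), Ephb4 (1.82), Ephb3 (1.80), Ntn3 (1.72), Efnb1 (1.52), Efna5 (1.42), Efna4 (1.07) and Ephb2 (1.06). The 10 genes with a difference below 0 were Plxna2 (−4.60), Ephb1 (−3.66), Slit1 (−3.21), Epha4 (−3.19), Epha7 (−2.64), Efna3 (−2.50), Ntn4 (−1.96), Efna1 (−1.65), Sema4b (−1.01) and Ntn1 (−0.97). The Sox2-derived side at 7 d was FGF Sox2+. Medium and reporter gate thus differed together with the source, and the test cannot tell their parts apart. FGF/CHIR DN, 1 Sox2-derived library, shared medium and gate with Tbxt 7 d. Its log2 difference from Tbxt 7 d was −1.67 for Sema5a, −0.90 for Nrp2, −1.83 for Sema3a, −1.81 for Robo2, −2.34 for Plxna4 and −0.43 for Plxna2. The part of source, medium or gate was not tested.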

How the results depend on the processing

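Counts below are guidance genes called, of 54 tested except where a setting changed the filter: 68 with no filter, 44 with the filter at 20 CPM, 39 to 41 at 48 h with the compared groups alone and 53 with the replicate block. The share of all tested genes called changed as well. For Sox2 48 h against NMP it was 7.92% in the main fit and 3.25% with no filter. Array weights gave 27.1% and the compared groups alone 13.3%. For Tbxt 48 h against NMP these were 18.4, 18.9 (filter at 20 CPM), 37.3 and 25.6%. For Tbxt 48 h against Sox2 48 h they were 3.9, 1.3 (no filter), 9.43 and 10.8%. For double-negative against Sox2+ cells the share was 14.1%, and 31.2% with array weights. For Sox2 48 h against NMP the count of 10 became 5 with no filter, 22 with array weights, 17 with the compared groups alone and 5 to 7 with 1 library left out. For Tbxt 48 h against NMP the 14 became 9 with a filter at 20 CPM, 28 with array weights, 22 with the compared groups alone and 6 to 13 with 1 library left out. For Tbxt 48 h against Sox2 48 h the 9 became 4 with no filter, 14 with array weights, 16 with the compared groups alone and 3 to 6 with 1 library left out. For double-negative against Sox2+ cells the 14 became 25 with array weights and 7 to 19 with 1 library left out, and for the difference of changes the 32 became 19 to 37 with 1 library left out. For FGF Sox2+ against Sox2 48 h, Tbxt 7 d against Tbxt 48 h and Tbxt 7 d against FGF Sox2+ the leave-one-out ranges were 21 to 29, 34 to 43 and 28 to 39. Without 1 NMP library the share of all genes was 4.27 to 5.77% for Sox2 48 h against NMP. It was 11.4 to 16% for Tbxt 48 h against NMP. Without 1 Tbxt 7 d library it was 47.6 to 56.2% for Tbxt 7 d against Tbxt 48 h. It was then 40.1 to 50.5% for Tbxt 7 d against FGF Sox2+ and 27.1 to 40.2% for the difference of changes. Leaving out a library of a group of 2 leaves 1, which is assumed to vary like the other groups, and the cause of the other changed counts was not tested. How many calls held in every fit without 1 library was not counted over all tested genes. Over 153 named values, 1952 of 2173 pairs of value and alternative kept the threshold and the direction, 221 lost the threshold and 0 changed direction. The 153 values had been chosen for passing the threshold and, apart from the difference of changes, for libraries that did not overlap. Where libraries do not overlap, leaving 1 out cannot reverse the direction, so the 0 was largely fixed by this choice. Outside the named values, Efnb3 in double-negative cells (log2 difference −1.34) turned to 0.58 without FGF DN. With the replicate number as a block the counts were 6, 11 and 6 at 48 h, where 5.43, 13.5 and 2.87% of all tested genes passed. They were 27, 38 and 32 for the 3 comparisons at 7 d, where 21.2, 49.8 and 42% passed. For the difference of changes the count was 28, where 27.6% passed. Same-numbered libraries deviated together, with a correlation over 0.1, in 4 of 21 pairs, at 0.48 and 0.46 for the 2 pairs of NMP and Tbxt 48 h and 0.20 for those of Sox2 48 h and FGF Sox2+. Between Sox2 48 h and Tbxt 48 h the correlation was −0.17. Between 2 groups of 2 libraries, both pairs give the same value by construction and are not separate checks. Only NMP and Tbxt 7 d shared 3 numbers, with correlations of −0.19, −0.14 and −0.10. The correlations thus cannot settle whether the numbers pair libraries of the other groups. The labels do not say that they do, so the main fit did not pair them. Crossing the numbers of Tbxt 48 h in the block, an alternative chosen after seeing the data, gave 7 calls between the 48 h groups. In that fit 3.22% of all tested genes passed. Ntn4 fell under the level filter in some of the fits without 1 library and was then not tested. Depth limits FGF Sox2+ library 2, where a gene under 3.76 CPM rests on fewer than 3 reads.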
